A study of Mus musculus with 23 samples.

Results

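The microRNAs miR-451a, miR-144 and miR-486 are abundant in red blood cells, and their level in a retina was taken as an index of blood in the tissue. The amount of blood itself was not measured. They were followed in 23 small RNA libraries of mouse retina, 1 library per retina. The members were the mature rows of the count matrix named mir-451a, mir-144 or mir-486. This rule found 2 rows, mir-451a and mir-144, of 903 mature rows. No mature row of mir-486 was analysed here. All values belong to retinas taken at postnatal day 90. WT retinas came from untreated mice labelled Wild Type C57B (2 libraries). The other 21 libraries came from P23H+/- KI mice, which carry 1 knock-in copy of the P23H rhodopsin mutation. These were un-injected (5 libraries, called uninjected), saline injected (2), treated with human gRHO (3) or treated with mouse gRhO, written mouse gRho here (11). Both gRHO and gRho are genomic rhodopsin DNA given as nanoparticles, so every treated mouse and its uninjected control carried the same mutation. Of the injection, the sources used here give no route, dose or day, and they do not say whether animals were perfused.

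The Mir144 and Mir451a hairpins are cut from 1 primary transcript, which the erythroid factor GATA1 drives as red cells mature. miR-144 follows the usual path through Drosha and Dicer. The stem of miR-451a is too short for Dicer, and Argonaute 2 cuts it instead. Red blood cells lose their nucleus but keep these small RNAs, so mature miR-451a is found wherever blood is. miR-486 lies in an intron of Ank1 and is also made in muscle.

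The mature sequences are shown because the 2 rows are read as measures of the same cells while their seeds have nothing in common. Sequences are from RefSeq (GRCm38.p6), 5′ to 3′, with the seed, bases 2 to 8, in capitals. All lie on the plus strand of chromosome 11.
mmu-miR-451a: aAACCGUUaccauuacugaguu
mmu-miR-144-5p: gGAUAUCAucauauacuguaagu
mmu-miR-144-3p: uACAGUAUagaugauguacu
miR-451a lies at chr11:78073186-78073207, miR-144-5p at chr11:78073010-78073032 and miR-144-3p at chr11:78073047-78073066. Each seed was unique: 0 other names among 1679 mature mouse miRNAs in the table share any of these 7-base seeds. The first 6 bases of the miR-144-3p seed recur in 1 other miRNA, miR-101a-3p.

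The hairpins are shown with the mature miRNAs in capitals, because they differ in how many products they give.
Mir144 hairpin: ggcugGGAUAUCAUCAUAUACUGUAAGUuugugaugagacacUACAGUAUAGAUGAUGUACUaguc
Mir451a hairpin: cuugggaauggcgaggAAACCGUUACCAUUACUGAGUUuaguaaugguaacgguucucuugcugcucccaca
The Mir144 hairpin (chr11:78073005-78073070) and the Mir451a hairpin (chr11:78073170-78073241) are 99 bases apart. The table lists 2 mature products for Mir144 and 1 for Mir451a, whose mature sequence takes bases 17 to 38 of the 72-base hairpin. The mir-451a row can therefore hold only that 1 mature product, while the mir-144 row names no arm and its reads cannot be assigned to one. In the annotation of the same build, Mir451b occupies the coordinates of Mir451a on the minus strand, and the protein-coding gene Eral1 (chr11:78073376-78080383, minus strand) is the neighbour downstream.

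Libraries held between 5968388 and 16048954 mature miRNA reads. Levels are given as CPM, the counts of a row scaled to 1000000 of those reads. The matrix rows hold only part of them: its mature rows add up to between 10.4% and 19.5% of a library's mature reads (median 13.4%). Many rows also jump between 2 distant levels across libraries (65 of 337 rows with enough reads to judge), and neither mir-451a nor mir-144 was among these. Jumps between closer levels would go unseen, in the members too. Both were counted in every library, with 453 to 21795 reads of mir-451a and 12 to 784 of mir-144. Of the rows that are not mature, mir-451a had 48 stemloop, 25 unannotated and 11 precursor reads over all 23 libraries, against 226471 mature reads. mir-451b had 2 mature reads in all. mir-486a was seen only as 7 stemloop and 4 precursor reads, with at most 2 in a library, and is not compared.

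In 2 libraries photoreceptor miRNAs were low. The summed miR-183 cluster, which photoreceptors make, had 52.9 CPM in the right retina of mouse gRho mouse 1 and 198 CPM in the retina of uninjected mouse 2, against 296 to 1101 CPM in the other 21 libraries. Both of these retinas were above the median in mir-451a and mir-144.

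mir-451a ran from 75.9 to 2238 CPM over the 23 retinas (median 966), a range of 29.5-fold. mir-144 ran from 2.01 to 66.7 CPM (median 26.4), a range of 33.2-fold. These are among the widest spreads in the matrix. The SD of log2(CPM + 0.5) over libraries was 1.37 for mir-451a and 1.28 for mir-144, rank 2 and rank 3 of the 126 rows that averaged 10 CPM or more and do not jump between levels. The median row had an SD of 0.45.

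The 2 WT retinas had 964 and 234 CPM of mir-451a, and 23.3 and 19.8 CPM of mir-144. They differed 4.11-fold in mir-451a and hardly in mir-144, so the second WT retina had the lowest ratio of all libraries, 11.9 reads of mir-451a per read of mir-144. In the first the ratio was 41.3. Across the 21 P23H retinas it lay between 21.5 and 48.5, and its median over all 23 was 36.0.

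Uninjected mouse 1 had 422 CPM of mir-451a in the right retina and 176 in the left, uninjected mouse 2 had 1679 in its left retina, and uninjected mouse 3 had 1053 in the right and 2238 in the left. The same retinas had 10.3, 5.54, 43.3, 24.8 and 46.2 CPM of mir-144. The left retina of mouse 3 was the richest in mir-451a of all libraries, and both retinas of mouse 1 were below the median. The uninjected retinas thus spanned 12.7-fold in mir-451a without any injection.

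The saline mouse had 1347 CPM of mir-451a in the right retina and 305 in the left, with 62.6 and 8.23 CPM of mir-144. Human gRHO mouse 1 had 1495 CPM of mir-451a in the left and 1265 in the right retina, with 37.7 and 30.3 of mir-144. Human gRHO mouse 2, left retina only, had 368 and 10.9. In each of these groups the same retina was the lowest in both rows, though among 2 or 3 retinas 1 is always the lowest.

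The 11 mouse gRho retinas ran from 75.9 to 2135 CPM of mir-451a (median 966) and from 2.01 to 66.7 CPM of mir-144 (median 36.9). They covered almost the whole range of the series. The lowest, the left retina of mouse gRho mouse 2, rests on 453 reads of mir-451a (95% Wilson interval 69.2 to 83.2 CPM) and 12 reads of mir-144 (1.15 to 3.51 CPM). Such intervals cover counting error only. The next lowest retina in mir-451a had 176 CPM, outside the interval. Every group overlapped every other in both rows, as the plot of each retina shows.

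**Figure D1:**
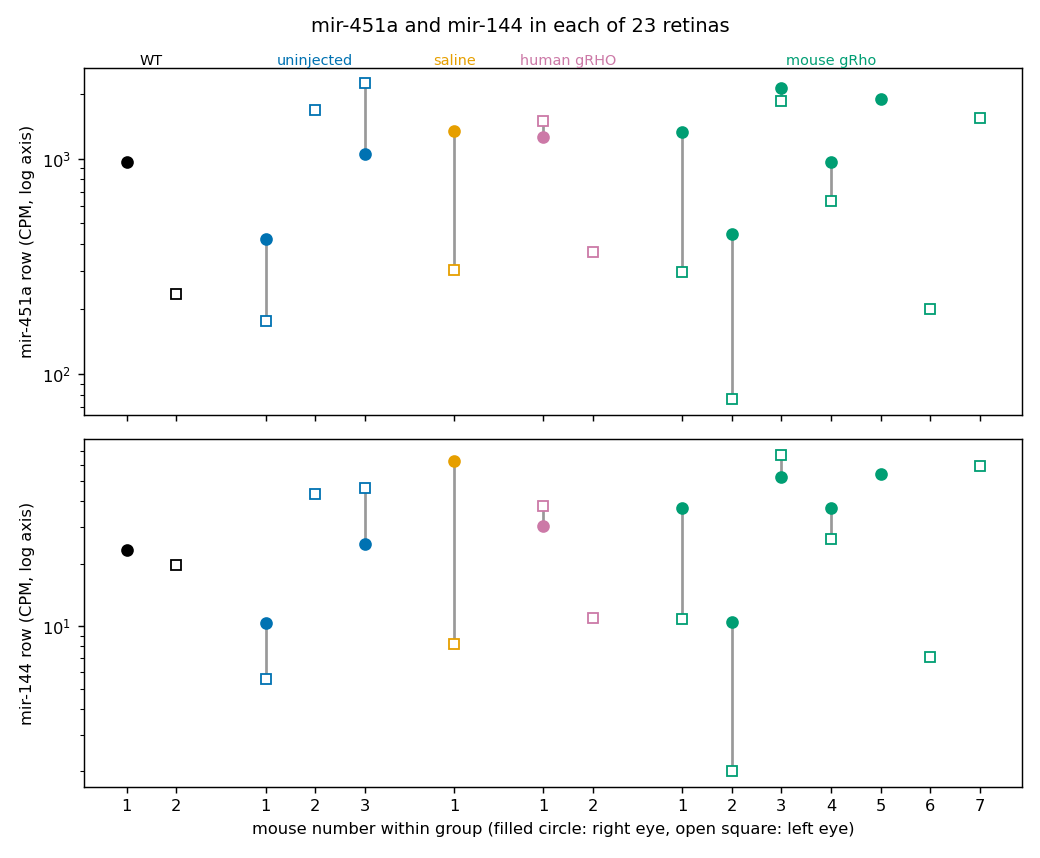
CPM of the mir-451a row (top) and the mir-144 row (bottom) on log axes, with mice side by side within their group, the right retina as a filled circle, the left as an open square and a line joining both eyes of a mouse. Each P23H group holds retinas above and below the median of 966 CPM of mir-451a, both WT retinas lie below it, and the 2 rows mostly rise and fall together, apart from WT mouse 2 and the eyes of mouse gRho mouse 3.

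For tests between groups the libraries of a mouse were summed, which gave 15 mice. Labels do not say that replicates are separate animals. Titles were read as mouse and eye, which is an inference, and p-values then reflect only how much these sums vary. The titles of the P23H mice open with a number whose meaning the sources used here do not give. It was the same for all uninjected mice, for both human gRHO mice and for the saline mouse's eyes, the mouse gRho mice had 3 such numbers, WT titles had none, and no number occurred in more than 1 group. Treatment and whatever this number stands for cannot be told apart. By mouse, mir-451a averaged 599 ± 516 CPM in WT (SD, n = 2), 1213 ± 789 in uninjected (n = 3), 873 ± 715 in human gRHO (n = 2) and 1079.9 ± 729 in mouse gRho (n = 7), and the single saline mouse had 847. mir-144 averaged 21.5 ± 2.53 CPM in WT, 29.0 ± 18.6 in uninjected, 22.4 ± 16.3 in human gRHO and 34.8 ± 23.2 in mouse gRho, and was 36.5 in the saline mouse. The SDs were close in size to the means, save for mir-144 in WT.

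Uninjected P23H mice were compared with WT mice to ask whether the mutant retina holds more of the red blood cell miRNAs. The 3 uninjected mice had 302, 1679 and 1657 CPM of mir-451a and the 2 WT mice 964 and 234, so the groups overlapped. The fitted difference was 0.62 on the log2 scale (SE 1.03, adjusted p = 0.777, edgeR quasi-likelihood test with Benjamini-Hochberg adjustment over 382 rows), with a 95% interval of the fold from 0.322 to 7.30. For mir-144, with 7.99, 43.3 and 35.7 CPM against 23.3 and 19.8, it was -0.08 (SE 0.96, adjusted p = 0.967, interval 0.221 to 4.03). Of the 2 members 0 passed, where 1.57% of all rows tested did. Without WT mouse 1 the mir-451a difference was 1.83, and without WT mouse 2 it was 0.17. In bulk tissue, fewer cells of a type and less RNA per cell cannot be told apart.

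Ribosomal RNA moved with the level in uninjected mice: it made up 0.358% of aligned reads in mouse 1, which was low in mir-451a, and 5.14% and 3.41% in mice 2 and 3, which were high. Between the eyes of mouse 1 both were higher on the right. In mouse 3 the order was reversed: 3.83% with 1053 CPM of mir-451a on the right, 3.0015% with 2238 CPM on the left. Leaving out the 6 libraries with over 3% ribosomal RNA kept only uninjected mouse 1 of this group. The mir-451a difference from WT then turned to -1.20. The left retina of mouse 3 was only just over this cut-off. The part of ribosomal RNA in the result was not tested. In the mouse gRho group, mice 2 and 6, with 2.25% and 4.85%, were the lowest in mir-451a. Mouse gRho mouse 3, next in ribosomal RNA with 1.67%, was the highest of all mice in mir-451a (1978 CPM). The right retina of mouse gRho mouse 2 had 0.321% and was also below the median, with 448 CPM.

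Treated mice were compared with uninjected mice to ask whether the retinas of injected mice hold more blood miRNA. All 4 of these comparisons share the 3 uninjected mice. They do not single out an injected eye, since labels do not name it and the retinas of a mouse were summed. The 7 mouse gRho mice had from 199.8 to 1978 CPM of mir-451a (median 809.95) and from 7.10 to 60.3 CPM of mir-144 (median 31.2), against the uninjected values given above. The groups overlapped. The difference was 0.13 for mir-451a (SE 0.77, fold interval 0.340 to 3.5) and 0.56 for mir-144 (SE 0.74, interval 0.479 to 4.56), and the edgeR adjusted p was 0.982 for each. Of the 2 members 0 passed, and 0% of all rows did. 18 of the 382 rows had an unadjusted p under 0.05, and no member was among them. Leaving out the ribosomal-RNA-rich libraries, and with them 2 of the 3 uninjected mice, gave 2.10 for mir-451a and 2.44 for mir-144. The treated side changed as well. It lost mouse gRho mouse 6 (199.8 CPM of mir-451a), the left retina of mouse 2 (75.9) and the right retina of mouse 3 (2135).

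The 2 human gRHO mice had 1379 and 368 CPM of mir-451a and 34.0 and 10.9 CPM of mir-144, 1 mouse near the upper uninjected values and 1 near the lowest. The differences from uninjected were -0.23 (SE 1.02, fold interval 0.183 to 4.0) and -0.11 (SE 0.96, interval 0.217 to 3.97), with an edgeR adjusted p of 0.999 for both. Again 0 of the 2 members passed, beside 0% of all rows. Without human gRHO mouse 1 the mir-451a difference was -1.46, without mouse 2 it was 0.29, and without the ribosomal-RNA-rich libraries it was 1.54. Without the 2 libraries low in photoreceptor miRNAs it was 0.057, and for mir-144 0.27.

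The saline mouse lay between the uninjected mice in both rows. Its differences were -0.15 for mir-451a (SE 1.29, fold interval 0.127 to 6.37, edgeR adjusted p = 0.996) and 0.70 for mir-144 (SE 1.16, interval 0.280 to 9.44, edgeR adjusted p = 0.910). These assume that the lone mouse varies like the others. The mean of the 3 injected groups differed from uninjected by -0.08 for mir-451a (SE 0.79, fold interval 0.283 to 3.14) and 0.38 for mir-144 (SE 0.76, interval 0.412 to 4.14), with edgeR adjusted p = 0.985 and 0.933. In both comparisons 0 of 2 members passed, beside 0% of all rows, and without the ribosomal-RNA-rich libraries the mir-451a differences were 1.62 and 1.75. Without the 2 libraries low in photoreceptor miRNAs they were 0.13 and 0.17.

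Mouse gRho was also set against WT and against human gRHO. The difference of mouse gRho from WT was 0.74 for mir-451a (SE 0.93, fold interval 0.406 to 6.89, edgeR adjusted p = 0.662) and 0.48 for mir-144 (SE 0.87, interval 0.374 to 5.19, edgeR adjusted p = 0.772). Here 3.14% of all rows passed and 0 of the 2 members did. Without WT mouse 1 the mir-451a value was 1.84, and without WT mouse 2 it was 0.19. The difference of human gRHO from mouse gRho was -0.35 (SE 0.91, interval 0.198 to 3.11) and -0.67 (SE 0.88, interval 0.166 to 2.36) for mir-451a and mir-144, with edgeR adjusted p = 0.997 for both, and 0 of 2 members passed beside 0% of all rows. Without human gRHO mouse 1 these became -1.58 and -1.71.

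A p that misses the threshold does not show that the groups have equal amounts: every fold interval above runs from under 0.5 to above 2. The members were measured less precisely than most rows, since their SE was larger in each comparison than the median SE over the 382 rows, for example 0.77 against 0.44 between mouse gRho and uninjected.

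**Figure D2:**
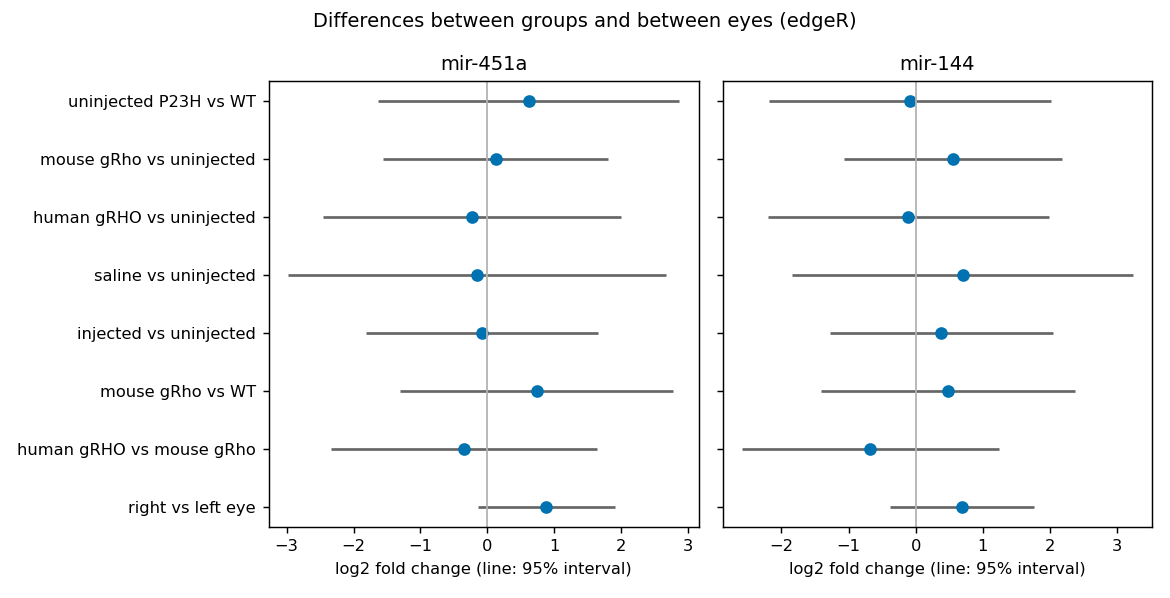
Log2 fold change of mir-451a (left) and mir-144 (right) in the 8 comparisons, with points for the fitted value and lines for its 95% interval. All 16 intervals cross 0, and the narrowest are those between right and left eyes of the same mouse.

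Both retinas of a mouse were sequenced in 8 mice, which share 1 circulation between their eyes. The eyes still differed widely. In mouse gRho mouse 2 the right retina had 448 CPM of mir-451a and the left 75.9, a 5.90-fold gap. In mouse gRho mouse 1 the values were 1329 and 297 (4.48-fold). The right retina of that mouse is 1 of the 2 that were low in photoreceptor miRNAs, with 52.9 CPM of the miR-183 cluster against 943 in the left, and the part of this in the gap was not tested. In the saline mouse the gap was 4.42-fold in mir-451a and 7.61-fold in mir-144. Retinas of uninjected mice differed too, 2.39-fold in mouse 1 and 2.13-fold in mouse 3, the latter higher in the left eye. Smaller gaps of 1.51-fold, 1.18-fold and 1.15-fold were found in mouse gRho mouse 4, human gRHO mouse 1 and mouse gRho mouse 3. The median gap was 2.26-fold for mir-451a and 1.86-fold for mir-144.

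The gap was shared by both rows in 7 of the 8 mice, with mouse gRho mouse 3 as the exception. The within-mouse SD between eyes was 1.09 for mir-451a and 1.05 for mir-144 in log2 units, against a median of 0.37 over 126 rows. The SD of the means of the 8 mice was 1.20 and 1.17, against a median of 0.27. The eye SD was thus slightly below the SD of mouse means in the members, while for the medians it was above. Mouse means also carry part of the eye differences and span the groups. The left retina of mouse gRho mouse 2 also had 6.20% ribosomal RNA against 0.321% in the right. The part of this in its low value was not tested.

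The right retina was higher in 6 of 8 mice for mir-451a and in 5 of 8 for mir-144. With a term for the mouse, right exceeded left by 0.88 on the log2 scale for mir-451a (SE 0.46, 1.84-fold, interval 0.905 to 3.75) and by 0.70 for mir-144 (SE 0.48, interval 0.769 to 3.41), with an edgeR adjusted p of 0.965 for both. Of the 2 members 0 passed, and 0% of all rows did. Without mouse gRho mouse 2 the mir-451a difference was 0.62, without mouse gRho mouse 1 it was 0.70, and without the saline mouse the mir-144 difference was 0.36. Labels do not say which eye was injected.

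**Figure D3:**
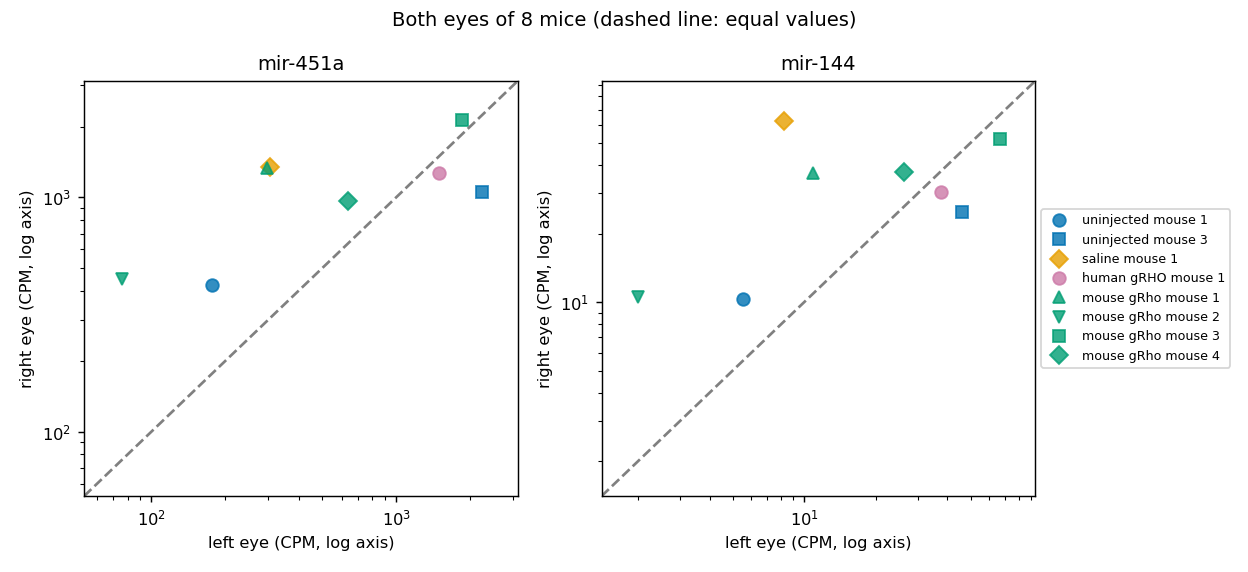
CPM of mir-451a (left panel) and mir-144 (right panel) in the right eye against the left eye of 8 mice, log axes, colour for the group, marker for the mouse and a dashed line for equal values. In 6 of 8 mice mir-451a lies above the line, and the farthest points are mouse gRho mice 1 and 2 and the saline mouse.

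The 2 members rose and fell together. Over 15 mice, log2(CPM + 0.5) of mir-451a and mir-144 had Pearson's r = 0.91 (permutation p = 1e-05, the smallest that 100000 permutations can give, adjusted 5e-05 over 5 relations) and Spearman's rho = 0.91 (permutation p = 2e-05). Without the 2 mice farthest from the median r was 0.95. Within the 7 mouse gRho mice, the largest group, r was 0.98 (exact permutation p = 0.00159, adjusted 0.00794) and rho 0.93 (exact permutation p = 0.00675). Over the 17 libraries with at most 3% ribosomal RNA r was 0.92, and over the 21 P23H libraries 0.97. The differences between the eyes of a mouse went together as well (r = 0.95 over 8 mice, given as a description).

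The other 4 relations in this family did not pass. mir-142a, a miRNA of white blood cells, gave r = 0.50 with mir-451a over mice (permutation p = 0.0567, adjusted 0.142, rho = 0.49, r without the 2 farthest mice 0.54) and 0.28 within mouse gRho. mir-23a, whose ratio to miR-451a is used as an index of haemolysis in serum, gave r = 0.12 (adjusted permutation p = 0.952, rho = 0.05). The summed miR-183 cluster of the photoreceptors gave 0.08 (adjusted permutation p = 0.952, rho = 0.08), and the share of ribosomal RNA -0.02 (adjusted permutation p = 0.952, rho = 0.21). These 3 changed sign without the 2 farthest mice (-0.06, -0.33 and 0.27). Within the mouse gRho mice the ribosomal RNA share gave r = -0.78 (exact permutation p = 0.0282, adjusted 0.0704) but rho = -0.43.

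The rows most like mir-451a were ranked by Pearson's r of log2(CPM + 0.5) over the 23 libraries, among 125 rows. These values are a description, since the points share libraries and depth. mir-144 ranked first with r = 0.95. The next 5 were mir-378a (r = 0.84), mir-133a-1 (0.84), mir-133a-2 (0.83), mir-22 (0.77) and mir-106b (0.69). The median over all 125 rows was 0.08 and the lowest was -0.46, for mir-770.

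mir-133a is a miRNA of heart and skeletal muscle, and its 2 rows are copies that can share reads, so they count as 1 measurement. mir-133a-1 ran from 34.9 CPM in WT mouse 2 to 563 in uninjected mouse 2 (median 325). It was low in several retinas that were low in mir-451a: 55.6 in the left retina of mouse gRho mouse 2, 54.1 in the left saline retina and 77.2 in mouse gRho mouse 6. mir-378a, which lies in an intron of the metabolic regulator Ppargc1b, ran from 23.1 to 162 CPM, and mir-22 from 138 to 619. Between the eyes of a mouse, mir-133a-1 differed in the direction of mir-451a in 4 of 8 mice, mir-378a in 5, mir-22 in 6, and mir-144 and mir-142a in 7 each. As a description, the right minus left differences had r with those of mir-451a of 0.61 for mir-133a-1, 0.67 for mir-378a, 0.50 for mir-22, 0.76 for mir-142a and 0.95 for mir-144, beside a median of -0.29 over 125 rows. Differences between these rows were not tested.

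**Figure D4:**
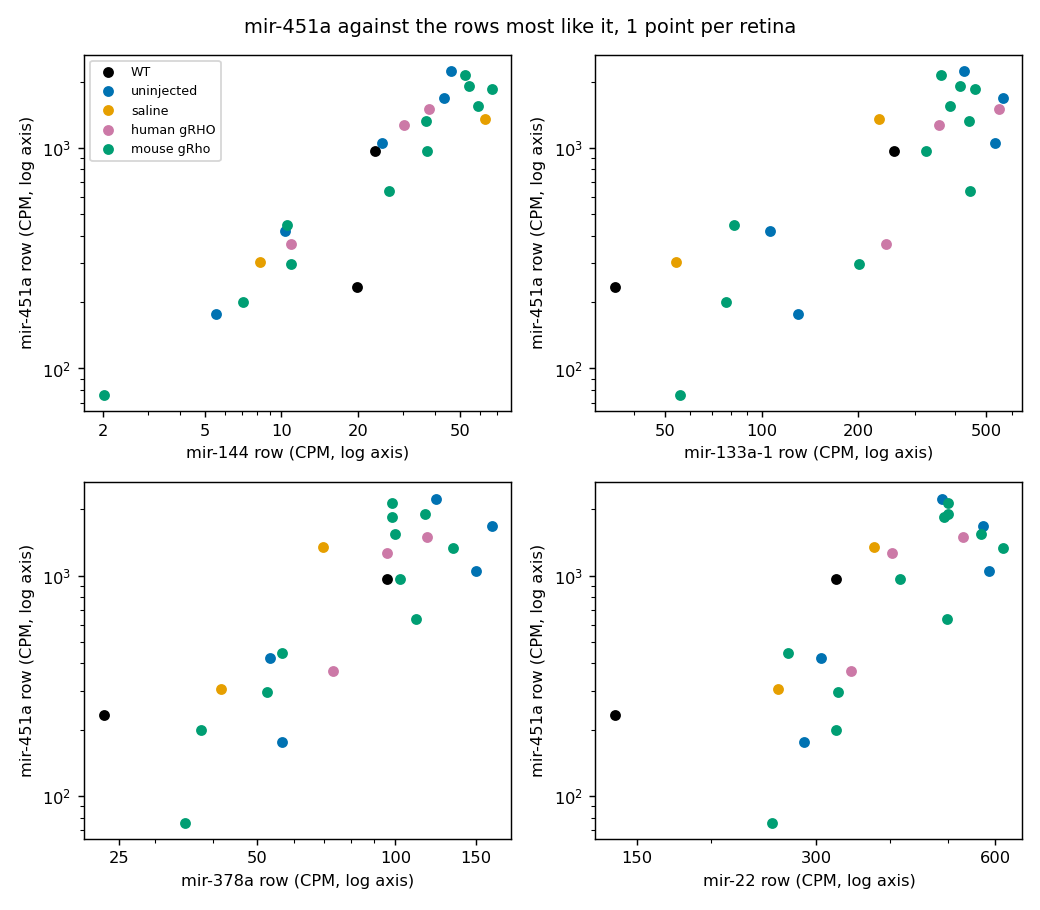
CPM of mir-451a against mir-144, mir-133a-1, mir-378a and mir-22 on log axes, 1 point per retina, coloured by group. The relation is closest for mir-144 (r = 0.95 over 23 libraries), where WT mouse 2 is the point that lies to the right, and looser for mir-22 (r = 0.77).

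Other lists of marker miRNAs show what else varied in the same retinas. Of 14 further miRNAs that are abundant in red blood cells or haemolysed samples, 3 jumped between levels and 11 were tested, and 0 of the 11 passed in any of the 8 comparisons. Their median difference was 0.14 between uninjected and WT, beside -0.09 over all rows, and 0.12 between mouse gRho and uninjected, beside 0.08. The 4 of them that averaged 10 CPM or more, mir-22, mir-15b, mir-16-2 and mir-484, all had a positive r with mir-451a (0.77, 0.66, 0.52 and 0.26). A positive r was common, reaching down to rank 71 of the 125 rows ranked, and the median over those rows was 0.08. Several miRNAs of this list are made in many tissues.

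As a sum, markers of white blood cells and platelets were less variable than the members, though mir-150 alone ran from 0.062 to 2.86 CPM. The summed level of 4 usable rows of 8 listed was 47.2 to 69.3 CPM in WT, 72.2 to 100.1 in uninjected, 68.2 to 69.9 in saline, 62.8 to 80.7 in human gRHO and 60.6 to 96.4 in mouse gRho retinas. None of the 4 passed in a comparison. mir-142a followed mir-451a over the libraries (r = 0.61), while mir-342 did not (r = -0.35), and mir-223 of neutrophils had at most 7.84 CPM.

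The vessel wall list had 6 usable rows, of which the 5 that averaged 10 CPM or more had a positive r. So did all rows down to rank 71 of the 125 ranked. mir-126a of endothelium gave 0.68 and mir-145a of smooth muscle 0.51. mir-214 gave 0.35, and mir-199a-1 and mir-199a-2, which are copies of each other, gave 0.24 and 0.25. mir-143, which is made from the same transcript as mir-145a, was the only list row to pass in any comparison. It was lower in mouse gRho than in WT by a log2 difference of -1.84 (SE 0.41, edgeR adjusted p = 0.0138), where 3.14% of all rows passed. Its median over the libraries was only 6.26 CPM. In the same comparison 4 of the 6 vessel wall rows were higher in mouse gRho. mir-145a was among these 4, with a difference of 0.40 (SE 0.28, edgeR adjusted p = 0.424). Without WT mouse 2 the mir-143 difference was -0.42 (SE 0.49, edgeR adjusted p = 0.787). Leaving out WT mouse 1 made it -2.45.

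Striated muscle rows added up to 68.7 to 513 CPM in WT, 206 to 1150 in uninjected, 109 to 465.8 in saline, 472 to 1090 in human gRHO and 112 to 932 in mouse gRho retinas. Of the 8 listed, 3 jumped between levels (mir-1a-1, mir-1a-2 and mir-206) and were not compared. The sum was nearly all mir-133a: mir-133b and mir-208a had a median of 0 and reached at most 0.527 and 0.216 CPM. 3 rows were tested and 0 passed. The part of muscle in the levels of the members was not tested.

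In contrast, 0 of the 11 retina rows had a positive r with mir-451a over the 23 libraries (median -0.17). The signs depended on whether libraries or mice were counted, and on the 2 libraries low in photoreceptor miRNAs. Over 15 mice r was 0.10 for mir-183, 0.08 for mir-182, 0.003 for mir-96, 0.036 for mir-124-1 and 0.095 for mir-204. The remaining retina rows were negative over mice. Over libraries without those 2, r was 0.095 for mir-183, 0.076 for mir-182, 0.036 for mir-96, 0.079 for mir-124-1 and 0.076 for mir-124-3. It stayed negative for mir-124-2 (-0.0017), mir-9-1 (-0.39), mir-9-2 (-0.38), mir-9-3 (-0.51), mir-204 (-0.12) and mir-211 (-0.11). The mir-9 rows are copies of each other, as are the mir-124 rows. In every comparison 0 of the 11 retina rows passed. These rows were summed at 2813 to 13070 CPM in mouse gRho retinas and 4906 to 11411 in uninjected retinas. Most of these sums came from the mir-9 rows. mir-124-3, a neuronal miRNA, ran from 2.85 to 163 CPM. A liver and plasma row that could be used had at most 2.62 CPM, and the row of mir-122, the main liver miRNA, jumped between levels.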

How the data were processed

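Retinas were frozen on dry ice and libraries were prepared with a NEXTflex small RNA kit, per the labels' protocols. The authors deposited counts of reads for each miRNA locus, divided by class (mature, precursor, stemloop, unannotated), and a summary of counts by alignment class. The submitters' processing notes name DESeq2. The sources used here do not give the aligner, counter or build. The matrix had 0 unused columns.

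CPM were counts scaled to 1000000 mature miRNA reads of the alignment summary. A row was set aside as jumping between levels if it reached 30 reads and its sorted log2(CPM + 0.5) had a gap of 3.5 or more, or of 2 or more between sets of at least 2 libraries. Counts summed per mouse were tested with edgeR 4.0.16 in R 4.3.3: quasi-likelihood, robust, all 5 groups in 1 fit, TMM factors from 0.734 to 1.26. The 382 other rows with 10 or more counts in 3 or more mice were tested. Benjamini-Hochberg adjusted p-values under 0.05 were called. Eyes were compared with the mouse as a block. Fold changes include the TMM factors, and CPM do not. Intervals are 95%. Alternatives were DESeq2 1.42.0, other scalings, filters and sample sets. The closest pair of libraries within a group had a chi-square of 15.8 per degree of freedom (70 pairs), so none was counted as a duplicate. The test was tried on simulated data.

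The members, lists and rules were chosen with earlier results of these data known. The rows named were the members, mir-23a, list rows past the threshold and the 5 rows most like mir-451a. Other list rows named were chosen after their values were seen.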

Additional observations from a re-analysis of the deposited data

How the results depend on the processing

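The 2 members passed in none of the 8 comparisons under any of the alternatives run (254 member differences, of which 217 kept their direction and 37 turned, with 0 past the threshold). The cause of the turns was not tested. For uninjected against WT, mir-144 (-0.08 as reported) became 0.037 with DESeq2, 0.028 with median-of-ratios factors, 0.42 scaled to mature reads alone, 0.18 with no filter on low counts, 0.18 with level-jumping rows kept and 0.12 with only these groups fitted. Its leave-one-out values ran from -0.50 to 0.34. mir-451a became -1.20 without the ribosomal-RNA-rich libraries, which leaves 1 uninjected mouse.

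For mouse gRho against uninjected, mir-451a became -0.17 scaled to mature reads alone and -0.014 with no filter, and ran from -0.31 to 0.45 with 1 mouse left out. For human gRHO against uninjected, mir-451a and mir-144 became 0.084 and 0.21 with each library as a replicate, 1.54 and 1.51 without the ribosomal-RNA-rich libraries, and 0.057 and 0.27 without the 2 libraries poor in retinal miRNAs (uninjected mouse 2 and the right retina of mouse gRho mouse 1). With 1 mouse left out they ran from -1.46 to 0.29 and from -1.15 to 0.34. For saline against uninjected, mir-451a became 1.62 and 0.13 in the same 2 reductions and ran from -0.59 to 0.17. For all injected groups it became 0.0088 with each library as a replicate, 1.75 and 0.17 in those reductions, and ran from -0.52 to 0.24, and mir-144 ran from -0.040 to 0.80. For human gRHO against mouse gRho, mir-451a ran from -1.58 to 0.29.

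Without the replicate block that pairs the eyes of a mouse, right against left was 0.23 for mir-451a and 0.29 for mir-144, and 0 members passed. Groups share no mouse, so no pairing across groups was made. The saline mouse was not left out, since it is the only one. The correlation of mir-451a with the miR-183 cluster was -0.14 over 23 libraries, and that with mir-142a was 0.61 (adjusted permutation p = 0.00525), where both eyes of a mouse count separately. Over all rows, the count past the threshold went from 6 to between 0 and 60 for uninjected against WT and from 12 to between 0 and 64 for mouse gRho against WT, where leaving out WT mouse 1 gave both highest counts and leaving out WT mouse 2 gave 0 in each. Depth limits mir-144 most, with 12 reads in its lowest library.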

Other observations

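The ratio of mir-451a to mir-23a reads, used in serum to find haemolysed samples, ran from 5.15 to 173 over the 23 retinas (median 48.5). It was lowest in a mouse gRho library and highest in another, and was 28.7 and 133 in the WT retinas. The mir-23a row held only 70 to 439 reads per library and names no arm, so its scale cannot be set beside that used in serum.

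The mouse gRho mice were the only group with more than 1 leading title number, with 3. The 2 mice that share the first had 1545 and 1904 CPM of mir-451a and 58.7 and 54.2 CPM of mir-144. The 3 that share another had between 199.8 and 785 CPM of mir-451a and between 7.10 and 31.2 of mir-144. The 2 that share the remaining number had 809.95 and 1978 CPM of mir-451a and 23.8 and 60.3 CPM of mir-144. The ranges of the first and the second number did not overlap in either row. Those of the second and the remaining number did not overlap in mir-451a but did in mir-144. How many of all rows separate these mice in the same way was not counted, so nothing about the members is concluded from it. The members are also not separate observations here, with r = 0.98 between them over the mouse gRho mice. The gap between these numbers was noticed in the data and was not tested.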
